A study of Mus musculus with 6 samples.

Results

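The genes described here are the carnitine acyltransferases on the array, Cpt1a, Cpt1b, Cpt2, Crat and Crot, together with Slc22a5, the transporter that brings carnitine into cells. They were selected on their gene names with the YY1bKO against control difference of Cpt1b already known, so every difference between the groups in these 6 genes is given as a description, with no test. The 6 genes were read by 11 of the 22626 probe sets left after the Affymetrix controls were set aside. Of the 6 genes, 5 had a probe set that named them alone, and Cpt1b had a single probe set, which also names its neighbour Chkb and the transcript Gm44502.

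Long chain fatty acids reach the mitochondrial matrix as carnitine esters. Carnitine palmitoyltransferase 1 on the outer membrane makes the ester and is inhibited by malonyl-CoA, a carrier moves it across the inner membrane, and carnitine palmitoyltransferase 2 turns it back into an acyl-CoA for beta-oxidation. The liver isoform of the first enzyme is encoded by Cpt1a and the muscle isoform by Cpt1b, which is also the abundant isoform of brown fat. Crat handles acetyl and other short chains, and Crot handles medium chains that leave the peroxisome.

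RNA came from subcutaneous white adipose tissue (IWAT in the sample names) of mice aged 8 weeks, on a mixed C57BL6 and 129 background, that had eaten a high fat diet for 2 weeks. The YY1bKO group (n = 3 arrays) carried YY1flox/flox alleles and Ucp1Cre, and the control group (n = 3 arrays) carried YY1flox/flox alleles. Cre under Ucp1 regulatory sequences acts mainly in brown and beige adipocytes, no group with Cre and without the floxed alleles is among the samples, and nothing in the labels says that the arrays came from separate animals. P-values given for other genes therefore measure the spread between these arrays, and the number of arrays limits the precision. The question is how the carnitine system of a white fat depot differs between mice with and without a deletion aimed at thermogenic fat.

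The arrays had median intensities from 123.15 to 130.35 and lower quartiles from 29.9 to 31.7. The brightest of the 4 Yy1 probe sets ran from 1118.1 to 1357.5 in YY1bKO and from 1287.5 to 1568.2 in control arrays, with overlap between the groups. All 4 had lower means in YY1bKO, by -0.24 to -0.07 on the log2 scale, and 1 of them did not overlap, with 99.1, 121.3 and 108.2 in YY1bKO and 122.8, 121.4 and 129.4 in control arrays. No source used here says whether its probes lie in the deleted part. White adipocyte markers were bright in every array, with summed intensities of 7 genes from 94509.8 to 100485.7 in YY1bKO and from 79563.0 to 100752.1 in control arrays. YY1bKO replicate 1 was the highest array in 11 of 13 skeletal muscle markers. Control replicate 2 was the highest in 7 of 9 skin and mammary epithelium markers. B cell markers (6 measured) had summed intensities from 272.4 to 4294.8 in YY1bKO and from 325.9 to 8956.3 in control arrays. In whole tissue, fewer cells of a type and less RNA per cell cannot be told apart.

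Slc22a5, the plasma membrane importer of carnitine also called OCTN2, was higher in YY1bKO fat by both of its probe sets. Its brightest probe set read 913.4, 835.8 and 991.7 in YY1bKO replicates 1 to 3, against 703.9, 604.8 and 650.3 in control replicates 1 to 3. Every YY1bKO array lay above every control array, and the lowest of them was 1.19 times the highest control. The mean intensity was 914 ± 78.0 in YY1bKO and 653 ± 49.6 in control arrays (SD, n = 3 each), a log2 difference of 0.48 ± 0.11 (SE). The other probe set read 74.2, 71.1 and 73.4 in YY1bKO and 62.7, 47.9 and 40.3 in control arrays, again without overlap, with a log2 difference of 0.55 ± 0.17 (SE). All differences are YY1bKO minus control on log2(intensity + 1), a scale that understates the change of dim probe sets.

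Cpt1a, the liver isoform and the main isoform described for white adipocytes, was lower on average in YY1bKO by all 3 of its probe sets, and the groups overlapped in each. Its brightest probe set read 633.2, 652.8 and 621.2 in YY1bKO, against 816.9, 851.8 and 639.5 in control arrays. YY1bKO arrays lay within 1.05 times of each other, and control replicate 3 fell among them while the other controls lay well above. Its log2 difference was -0.26 ± 0.13 (SE). The other probe sets gave -0.48 ± 0.22 and -0.38 ± 0.22, and control replicate 3 was the lowest control in both. Both carry the Affymetrix suffix x, used for probes that may also bind other transcripts. Without control replicate 3, which also had the highest B cell sum, the differences of the 3 probe sets were -0.39, -0.68 and -0.60, and in none of them did the groups overlap. Leaving out YY1bKO replicate 1 or YY1bKO replicate 2 also ended the overlap, in 1 probe set each. The part of B cells in this was not tested.

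Cpt1b, the muscle and brown fat isoform, showed by far the widest gap of the 6 genes. Its shared probe set read 695.9, 653.5 and 788.9 in YY1bKO replicates 1 to 3, against 138.0, 97.1 and 100.7 in control replicates 1 to 3. The groups lay far apart, the lowest YY1bKO array being 4.74 times the highest control and the highest YY1bKO array 8.12 times the lowest control. Control intensities lay above the lower quartile of every array and close to the array medians, while all YY1bKO values lay well above them. Means were 713 ± 69.3 in YY1bKO and 112 ± 22.6 in control arrays (SD, n = 3 each). The log2 difference was 2.67 ± 0.16 (SE), or 6.38-fold. Of all 22626 probe sets 3 had a larger difference, those of Fabp3 (5.79), Ucp1 (5.25) and Slc27a2 (3.67), which encode a fatty acid binding protein, the uncoupling protein of thermogenic fat and an acyl-CoA synthetase.

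The shared annotation of Cpt1b was set against a probe set that names Chkb alone. Chkb encodes choline kinase beta and lies next to Cpt1b on the chromosome, and Gm44502, with the synonym Chkb-Cpt1b, is listed in RefSeq as a long noncoding RNA that spans both. The Chkb probe set read 788.7, 829.8 and 798.0 in YY1bKO, against 641.2, 545.9 and 742.8 in control arrays. The groups did not overlap, and the log2 difference was 0.33 ± 0.13 (SE; limma unadjusted p = 0.0398, adjusted p = 0.491 over all probe sets). The difference on the shared probe set was thus several times that on the Chkb probe set. A part of the joint transcript Gm44502 in the signal of the shared probe set was not tested, so the value is of the Cpt1b locus rather than of the Cpt1b messenger RNA alone.

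Muscle tissue, which also expresses Cpt1b, was looked at through 13 skeletal muscle markers. Their summed intensity was 5342.0, 921.6 and 1954.6 in YY1bKO replicates 1 to 3, against 954.8, 658.1 and 722.0 in control replicates 1 to 3. By means 12 of the 13 were higher in YY1bKO, and 1 of them, Acta1, did not overlap between the groups. YY1bKO replicate 1 was the highest array in 11 of the 13, so most of the higher means leaned on that array. The fast myosin gene Myh4 read 454.2, 10.1 and 9.4 in YY1bKO and 17.9, 18.3 and 11.9 in control arrays, so 2 of the 3 YY1bKO arrays were no higher in it than any control. Acta1, skeletal muscle actin, read 1569.2, 524.3 and 1572.0 in YY1bKO and 312.7, 181.0 and 297.7 in control arrays. Acta1 alone made up most of the summed intensity of YY1bKO replicates 2 and 3. The log2 difference of the Cpt1b probe set was 2.69 without YY1bKO replicate 1, the array with the most muscle signal. The 6 cardiac and slow muscle markers had summed intensities from 133.5 to 143.4 in YY1bKO and from 139.0 to 151.9 in control arrays. Brown and beige adipocyte markers (8 genes, Ucp1 among them) summed to between 9120.5 and 10130.2 in YY1bKO and between 1524.5 and 3043.3 in control arrays. All 8 were higher on average, and 6 did not overlap between the groups, where 10.3% of all probe sets were higher without overlap. Whether these 8 genes are particular to thermogenic adipocytes, and not also expressed in muscle, was not tested. Dio2 and Cidea overlapped. The log2 difference of Dio2 was 0.07, and Cidea in control replicate 2 (2067.8) was above every YY1bKO array. The parts of muscle, of thermogenic adipocyte number and of transcript per cell in the Cpt1b values were not tested.

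**Figure D1:**
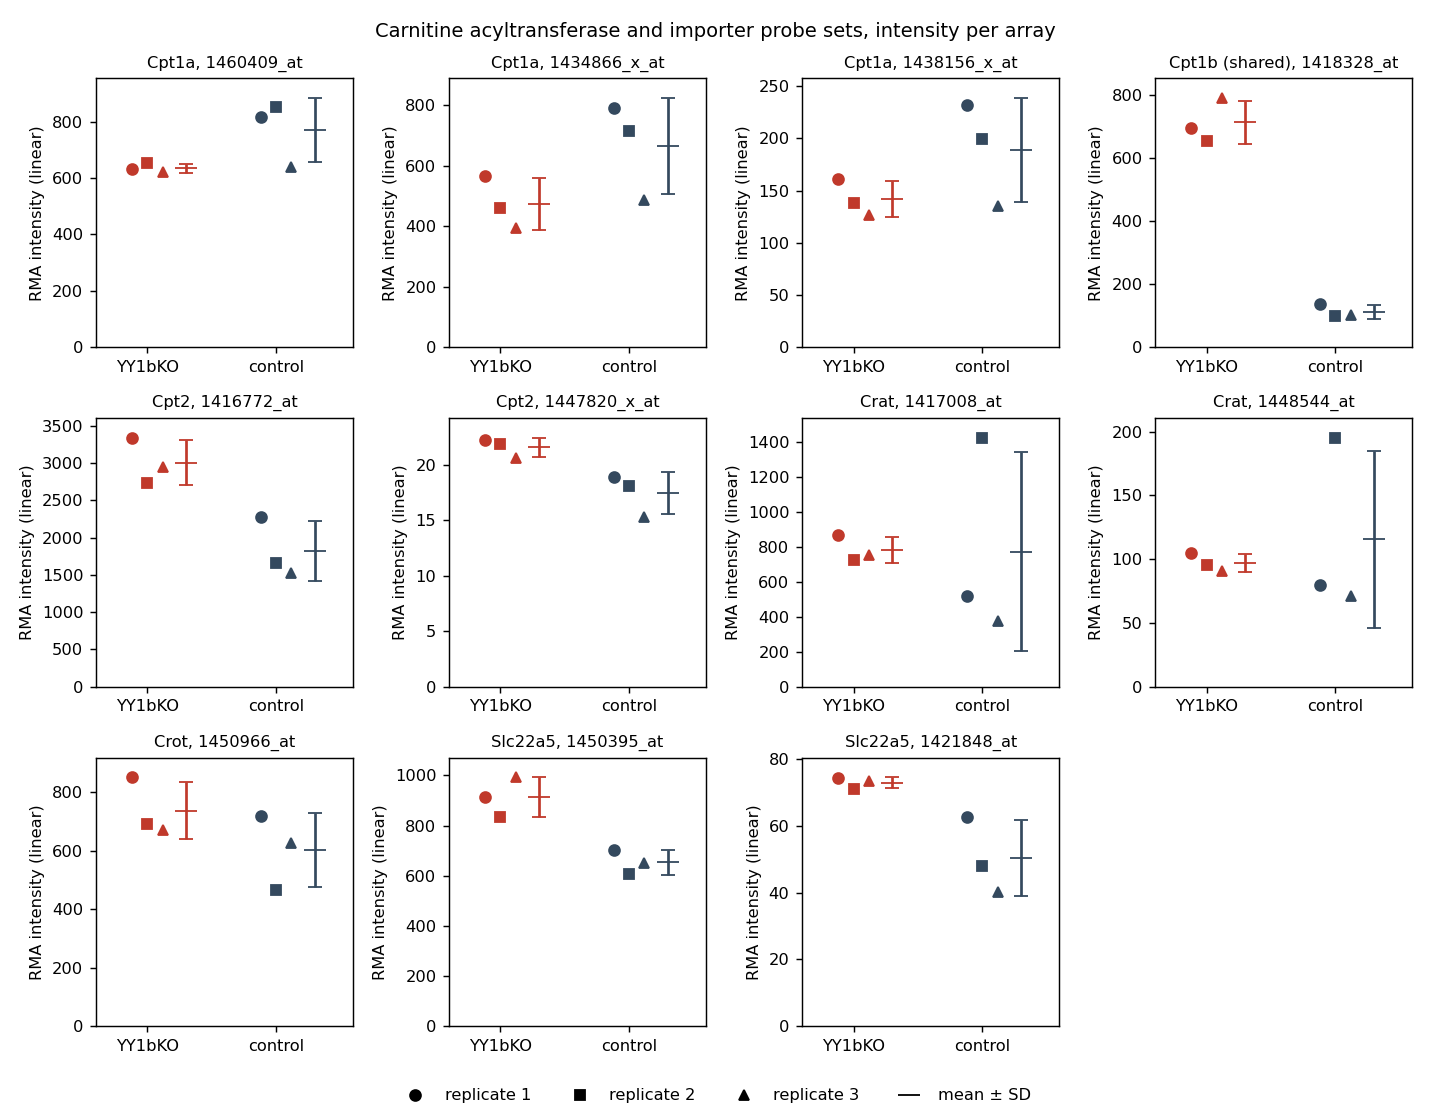
Intensity (linear RMA scale, y axis from 0) of the 11 probe sets of the 6 genes, YY1bKO left and control right, with a marker shape per replicate number and the mean ± SD beside the points. The Cpt1b panel shows YY1bKO arrays between 653.5 and 788.9 and control arrays between 97.1 and 138.0, while in the Cpt1a, Crat and Crot panels the groups overlap.

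**Figure D2:**
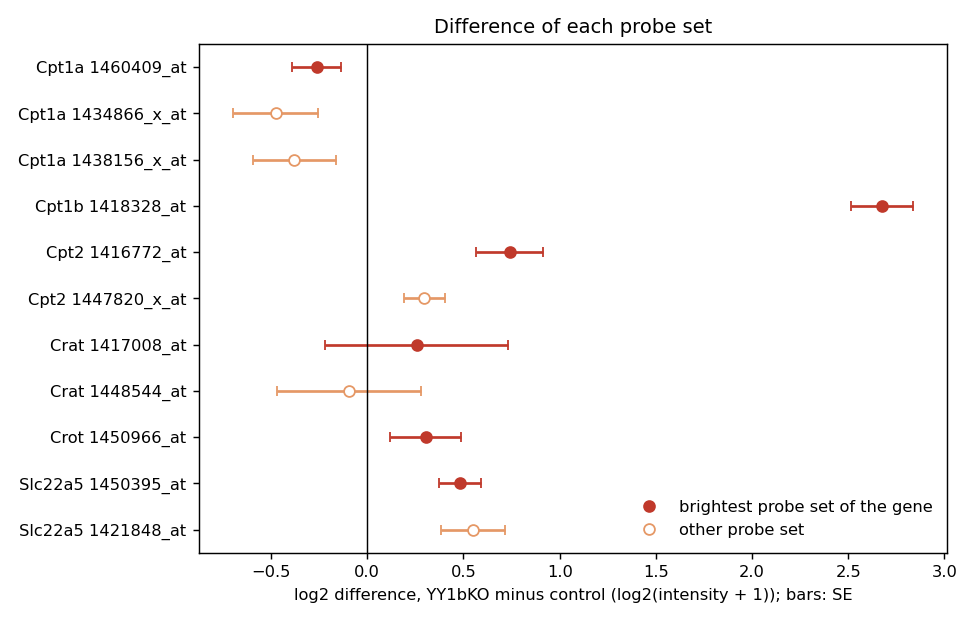
Log2 difference of each of the 11 probe sets, YY1bKO minus control, with SE bars. Filled points are the brightest probe set of a gene, and the Cpt1b point at 2.67 stands apart from the others, which lie between -0.48 and 0.74.

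The 2 isoforms of carnitine palmitoyltransferase 1 differed between the groups by unequal amounts. The log2 value of the Cpt1b probe set minus that of the brightest Cpt1a probe set was 0.14, 0.00 and 0.34 in YY1bKO replicates 1 to 3, against -2.56, -3.12 and -2.65 in control replicates 1 to 3. These values carry the unknown affinity of each probe set, so their zero has no meaning and only their difference between groups is read. That difference was 2.94 on the log2 scale, with means of 0.16 ± 0.17 in YY1bKO and -2.78 ± 0.30 in control arrays (SD, n = 3 each). Control replicate 2 was the lowest array and YY1bKO replicate 3 the highest.

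Cpt2, the inner membrane transferase, was higher in YY1bKO. Its brightest probe set read 3337.6, 2731.6 and 2951.1 in YY1bKO, against 2279.9, 1656.6 and 1527.6 in control arrays. No control array reached the lowest YY1bKO array, which was 1.20 times the highest control. The log2 difference was 0.74 ± 0.17 (SE), or 1.67-fold. Its other probe set read 22.2, 21.9 and 20.6 in YY1bKO and 18.9, 18.1 and 15.3 in control arrays, all below the lower quartile of each array, and its log2 difference of 0.30 ± 0.11 (SE) is one of dim signals. Control replicate 1, the highest control in both, was also the highest control in the white adipocyte sum (100752.1), and the part of adipocyte content in this was not tested.

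Crat, carnitine acetyltransferase of the mitochondrial matrix, had group means that hardly differed, and 1 control array set this. Its brightest probe set read 864.6, 726.1 and 750.0 in YY1bKO, against 518.1, 1420.9 and 375.1 in control arrays. Control replicate 2 was above every YY1bKO array, and the other controls were below every YY1bKO array. The log2 difference was 0.26 ± 0.47 (SE) over all arrays and 0.82 ± 0.17 without control replicate 2, when the groups did not overlap. In the other probe set control replicate 2 was again above every YY1bKO array and the other controls below them, with 104.8, 95.8 and 90.9 in YY1bKO and 79.8, 195.2 and 71.5 in control arrays. Its difference was -0.10 ± 0.38 over all arrays and 0.36 ± 0.12 without control replicate 2. Without control replicate 3 the difference of the brighter probe set was -0.14, so its direction depended on which control was left out. The summed intensity of 9 skin and mammary epithelium markers was 264.8, 457.2 and 314.1 in YY1bKO and 286.5, 9946.8 and 270.2 in control arrays. Krt14 (a keratin of basal epithelium) and Epcam were among the markers highest in control replicate 2, and the part of epithelium in its Crat value was not tested.

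**Figure D3:**
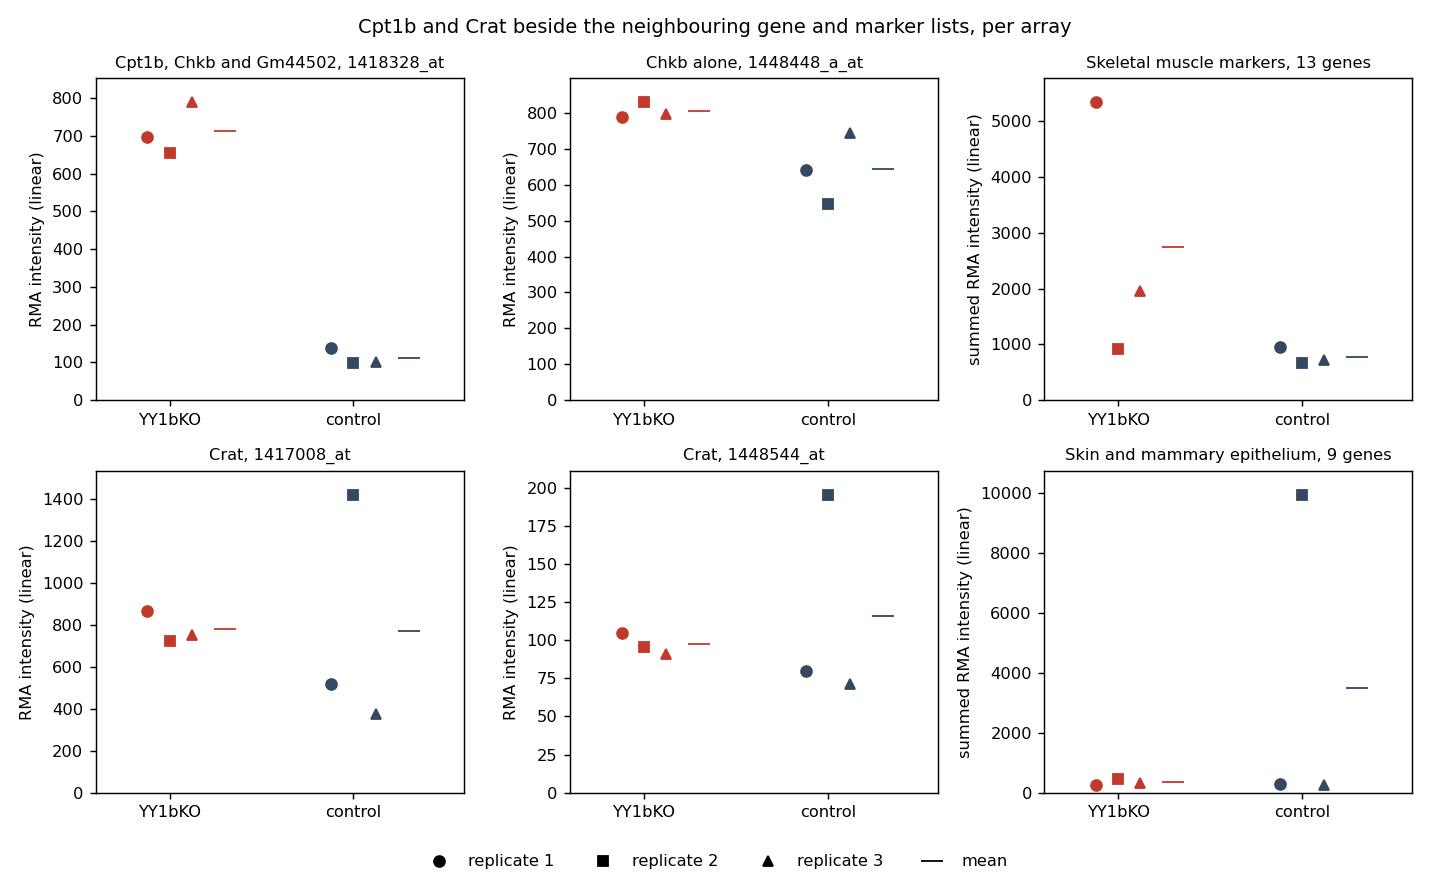
Intensity per array (linear RMA scale, y axis from 0; horizontal bars are group means) of the shared Cpt1b probe set, the Chkb probe set and both Crat probe sets, beside the summed intensity of 13 skeletal muscle and 9 epithelial markers. YY1bKO replicate 1 is the highest array in the muscle sum (5342.0) and YY1bKO replicate 3 in Cpt1b (788.9). Control replicate 2 is the highest array in the epithelial sum (9946.8) and in both Crat panels. The parts of muscle and epithelium were not tested.

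Crot, the peroxisomal carnitine octanoyltransferase, overlapped between the groups. Its only probe set read 850.7, 691.8 and 670.2 in YY1bKO, against 717.6, 467.1 and 625.8 in control arrays. Control replicate 1 lay above YY1bKO replicates 2 and 3, and control replicate 2 was the lowest array. The log2 difference was 0.30 ± 0.19 (SE). With single arrays left out it ran from 0.13 (without control replicate 2) to 0.44 (without control replicate 1, when the groups did not overlap). It was 0.20 without YY1bKO replicate 1, and 0.02 without both that array and control replicate 2. Replicate 1 was the highest array of its group for Crot and the lowest for B cell markers (summed 272.4 in YY1bKO and 325.9 in control), and the part of lymphoid cells was not tested.

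Counting each gene by its brightest probe set, 5 of the 6 were higher on average in YY1bKO and 1 was lower, with a median log2 difference of 0.39, where the median of all probe sets was -0.00 and 49.8% of them were higher. The groups did not overlap, in the higher direction, in 3 of the 6 genes (Slc22a5, Cpt1b and Cpt2), where 10.3% of all probe sets did so. In the lower direction this held for 0 of the 6, against 5.17% of all probe sets. Since the genes were chosen with this contrast in view, nothing is read from those counts. Of 18 alternative settings, 6 alter only the variance or the set of features tested and cannot move a difference. For Cpt1b, with its single probe set, 7 settings left the difference as it was. Over the 18 settings the Cpt1b difference ran from 2.52 to 2.83 and that of Cpt2 from 0.52 to 0.91. That of Slc22a5 ran from 0.42 to 0.55 and that of Cpt1a from -0.39 to -0.18.

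Promoter windows of RefSeq (assembly GRCm38.p6, 250 bases before to 50 after the annotated start) were matched for 4 of the 6 genes. Those of Cpt1b and Crat were not used here. The windows of Cpt2 and Slc22a5 are shown because these genes were higher together without overlap, and that of Cpt1a because it was the gene that was lower. Capitals mark matches to AGGTCA, the hexamer bound by nuclear receptors, on either strand.
Cpt2 (chr4:107923540-107923839, minus strand): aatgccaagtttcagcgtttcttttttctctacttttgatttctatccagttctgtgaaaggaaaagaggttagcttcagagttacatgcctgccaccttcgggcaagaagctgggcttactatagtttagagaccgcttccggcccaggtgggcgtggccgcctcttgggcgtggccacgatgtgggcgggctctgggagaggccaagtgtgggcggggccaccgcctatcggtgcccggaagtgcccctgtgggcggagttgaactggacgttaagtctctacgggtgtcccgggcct
Slc22a5 (chr11:53891654-53891953, minus strand): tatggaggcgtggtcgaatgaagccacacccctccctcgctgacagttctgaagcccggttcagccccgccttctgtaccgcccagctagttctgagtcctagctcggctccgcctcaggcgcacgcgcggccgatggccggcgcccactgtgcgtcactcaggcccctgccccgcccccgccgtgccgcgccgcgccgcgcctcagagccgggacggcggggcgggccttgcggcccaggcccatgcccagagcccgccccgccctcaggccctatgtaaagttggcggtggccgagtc
Cpt1a (chr19:3323051-3323350, plus strand): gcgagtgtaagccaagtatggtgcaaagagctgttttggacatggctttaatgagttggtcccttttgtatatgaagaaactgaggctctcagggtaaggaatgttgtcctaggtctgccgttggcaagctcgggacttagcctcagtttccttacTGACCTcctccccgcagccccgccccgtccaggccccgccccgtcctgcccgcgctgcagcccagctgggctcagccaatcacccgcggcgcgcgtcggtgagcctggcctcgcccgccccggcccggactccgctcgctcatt

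The windows were searched on both strands for AGGTCA, for a direct repeat of AGGTCA spaced by 1 base (the element bound by PPAR and RXR, which contains the hexamer) and for CCATNTT, used here as the YY1 motif. Shorter forms of the YY1 motif, such as CCAT, were not searched. The Cpt1a window held 1 hexamer from -94 to -89 relative to the start, on the opposite strand, so that it is printed as TGACCT. The windows of Cpt2, Slc22a5 and Crot held 0 matches to any of the 3. Of all 32851 windows 16.3% held AGGTCA, 0.0396% the spaced repeat and 16.1% CCATNTT, so a window without a match was the usual case. The 3 printed windows are rich in G and C, with 57.3% in Cpt2, 72.7% in Slc22a5 and 62.3% in Cpt1a, against a median of 52.7% over all windows. They held 17, 34 and 22 CG dinucleotides in that order, where the median window held 7. These counts describe the windows and say nothing about binding of either factor.

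The other genes of the pathway were read in 6 lists, of which 67 of 77 genes had a probe set that named them alone. By limma 0 of the 67 passed an adjusted p of 0.05, where 11 probe sets, 0.0486% of all, did so. At an unadjusted p under 0.05, 24 were higher and 0 lower, where 7.46% of all probe sets were higher and 2.06% lower. The lists were chosen with earlier results of these data known, so these counts are given as a description. Without YY1bKO replicate 1 and control replicate 2 together, a setting chosen after seeing the data, 14 had an unadjusted p under 0.05. Fewer arrays were fitted there, and neither directions nor the share of all probe sets are given for it, so the 2 counts are not compared.

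Among the carnitine supply and shuttle partners, 0 of 8 measured genes had an unadjusted p under 0.05 by limma in their brightest probe set, and their median log2 difference was 0.05. Slc25a20 encodes the carrier that exchanges acylcarnitine for carnitine across the inner membrane, between the steps of Cpt1 and Cpt2. Its brightest probe set read 2175.7, 2247.8 and 2252.5 in YY1bKO, against 1647.6, 2226.2 and 1414.7 in control arrays, with overlap and a log2 difference of 0.36 ± 0.17 (SE; limma adjusted p = 0.587). Its other probe set did not overlap and gave 0.57 (limma unadjusted p = 0.0162, adjusted p = 0.389). Control replicate 2 was thus the highest control for Slc25a20 as for Crat. Tmlhe, the first enzyme of carnitine synthesis, had a difference of 0.55 (limma adjusted p = 0.563), and Slc25a29, a mitochondrial carrier of basic amino acids, one of -0.19 (0.741).

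Another list joined genes around malonyl-CoA, the inhibitor of carnitine palmitoyltransferase 1, with genes around the kinase AMPK. Of its 13 genes 9 were measured. By limma 4 of the 9 were higher at an unadjusted p under 0.05, with 0 past the adjusted threshold. Acacb, the acetyl-CoA carboxylase associated with mitochondria that makes malonyl-CoA, read 546.8, 707.0 and 1004.5 in YY1bKO, against 148.4, 521.2 and 239.1 in control arrays. The groups did not overlap, but YY1bKO replicate 1 lay close above control replicate 2. Its log2 difference was 1.46 ± 0.47 (SE; limma adjusted p = 0.418). Mlycd, the decarboxylase that removes malonyl-CoA, read 407.7, 389.0 and 391.9 in YY1bKO and 283.6, 324.9 and 253.0 in control arrays, a log2 difference of 0.47 (limma adjusted p = 0.300). Acacb and Mlycd thus both had higher means in YY1bKO. Acaca, the other acetyl-CoA carboxylase gene of the list, had a dim probe set. It read 25.1, 25.9 and 30.1 in YY1bKO and 27.7, 24.2 and 29.1 in control arrays. Its log2 difference was 0.00 (limma adjusted p = 0.998). Thrsp, a lipogenic protein, had a difference of 0.85 (limma adjusted p = 0.124).

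Mitochondrial beta-oxidation, the pathway fed by this shuttle, had 17 of 17 genes with higher means in YY1bKO, 14 of them at an unadjusted p under 0.05, and a median log2 difference of 0.61. By limma 0 of the 17 passed the adjusted threshold. The thiolase gene Acaa2 (1.00, adjusted p = 0.0554), the isomerase gene Eci1 (1.09, 0.0599) and the dehydrogenase gene Acadvl (0.87, 0.151) came nearest. Acaa2 passed with 1 probe set per gene or a pseudocount of 16, and both Acaa2 and Eci1 passed when only probe sets at or above the 50th brightness percentile were tested. The differences of Cpt2 (0.74) and Cpt1b (2.67) lie above that list's median, and those of Slc22a5, Crot, Crat and Cpt1a below it. Without control replicate 2 the difference of Crat was 0.82, and the list's median was not taken in that setting.

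Peroxisomal beta-oxidation, whose products Crot esterifies, had 8 of 15 genes with higher and 7 with lower means, with 3 higher at an unadjusted p under 0.05 and a median of 0.09. These were Ehhadh, the bifunctional enzyme (1.01, limma adjusted p = 0.267), Acot4, a thioesterase (0.49, 0.410), and Acaa1b, a peroxisomal thiolase (0.42, 0.440), and 0 of 15 passed the adjusted threshold. Acot4 was dim, with 45.8, 36.4 and 40.9 in YY1bKO and 34.4, 28.7 and 24.0 in control arrays, near or below the lower quartiles of the arrays. Abcd3, an importer of fatty acids into peroxisomes, was among the genes most like Crat over the arrays, being highest in control replicate 2.

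A list of possible regulators of Cpt1b held 16 nuclear receptors, coactivators and MEF2 factors. By limma 0 of the 16 passed the adjusted threshold and 2 were higher at an unadjusted p under 0.05. Ppargc1a, the coactivator PGC-1 alpha, read 140.0, 108.4 and 79.1 in YY1bKO and 74.8, 47.5 and 48.7 in control arrays, a log2 difference of 0.92 (limma adjusted p = 0.358). Its dimmer probe sets gave 0.50, 0.65, 0.84 and 1.17, and the groups overlapped in all of these but the last. Ppara, the receptor PPAR alpha, read 303.9, 222.4 and 216.1 in YY1bKO and 103.5, 221.4 and 83.8 in control arrays. It overlapped through control replicate 2, as Crat did, with a difference of 0.97 (limma adjusted p = 0.488). Mef2c had a difference of -0.59 (limma adjusted p = 0.660). The median of this list was -0.01. Of the choline branch 2 of 3 genes were measured, Chkb as given above and Chka, choline kinase alpha, with a difference of -0.02 (limma adjusted p = 0.982).

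**Figure D4:**
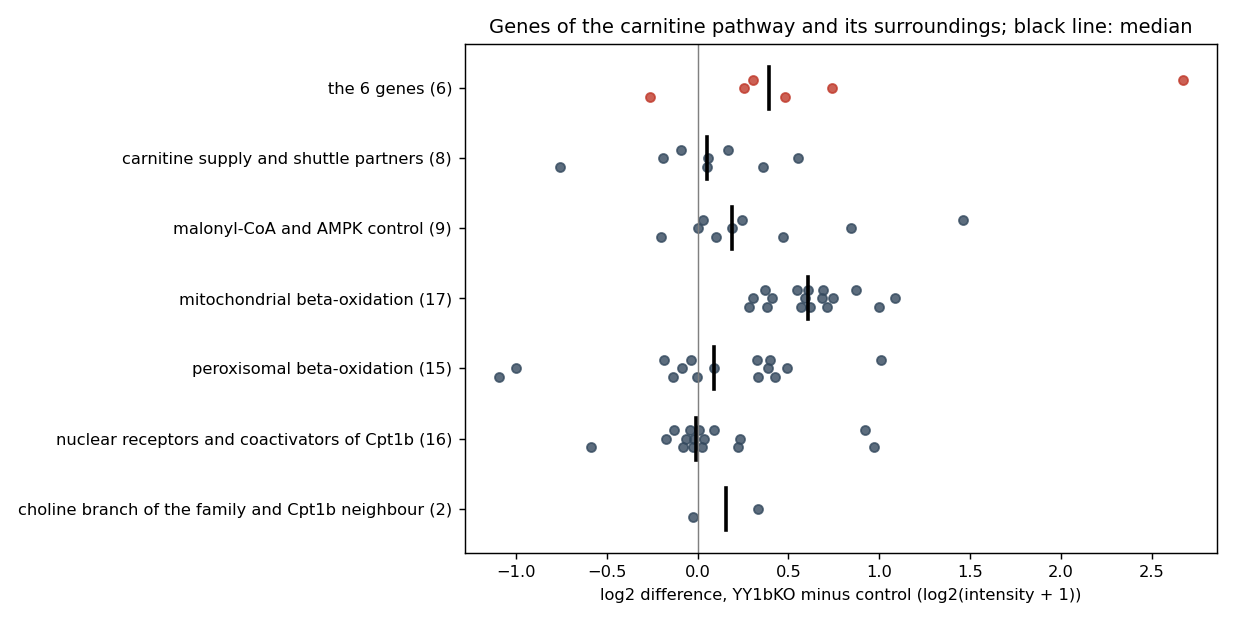
Log2 difference, YY1bKO minus control, of the 6 genes (red, brightest probe set) and of the measured genes of the 6 lists, with a black line at each median. Beta-oxidation genes of mitochondria all lie right of 0 with a median of 0.61, and Cpt1b at 2.67 lies to the right of every other gene drawn.

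The genes whose log2 values over the 6 arrays ran most like each member were sought by Pearson correlation among 1259 bright and variable genes. For Cpt1b these were Fabp3, Fbxo21 and Acaa2 (r = 0.994, 0.994 and 0.993), whose groups did not overlap either. For Cpt2 they were Tmem120b, Lipe and Igfbp6 (0.995, 0.992 and 0.984), and for Slc22a5 Cyb5r1, Clmn and Pde1a (0.989, 0.988 and 0.988), again without overlap between groups. The patterns of the other 3 members did not follow the groups. Cpt1a ran most like Nsdhl, Hilpda and Tubb2a (0.962, 0.955 and 0.937), Crat like Abhd3, Abhd6 and Abcd3 (0.988, 0.987 and 0.981), and Crot like Cd209g, Gpr146 and Fgl2 (0.989, 0.980 and 0.975), all of which overlapped between groups. With 6 arrays in 2 groups, a high r follows for any pair of genes that share the group difference or 1 outlying array.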

How the data were processed

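Biotin-labelled RNA was hybridised to Affymetrix mouse arrays, per the labels' protocols. The table deposited by the authors holds an intensity per probe set and array. RMA, named in the submitters' processing notes without a version, corrects background, equalises distributions and summarises probes. The values show that they are linear, not logged. RMA makes array distributions alike, so a change in total RNA per cell cannot appear, and it compresses low values. Genes were named from the platform annotation, and names on 691 probe sets with several genes were used only for Cpt1b.

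Values were analysed as log2(value + 1) with limma 3.58.1 under R 4.3.3 (moderated fit with 6.23 total degrees of freedom, 2-sided, Benjamini-Hochberg over 22626 probe sets, threshold 0.05), without a filter. A gene was represented by the probe set with the highest mean log2 value over all arrays. Arrays correlated at 0.957 to 0.994 (Spearman), with at most 212 identical values in a pair, so none was a duplicate.

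The members, lists and tests were chosen with earlier results of these data known. Named were all members, the 3 genes of each list with the smallest p, Slc25a20, Acacb and Mlycd, and the 3 genes most like each member by Pearson r (mean at or above the median, range of at least 1 on the log2 scale). Named outside that rule, after their values were seen, were Fabp3, Ucp1 and Slc27a2 for their differences, Acaca beside Acacb, and marker genes. Alternatives covered normalization, pseudocount, filters, probe set choice, variance model, replicate block and left-out arrays.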

Additional observations from a re-analysis of the deposited data

How the results depend on the processing

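The differences of Cpt1a, Cpt1b, Cpt2 and Slc22a5, the median of the 6 genes (0.34 to 0.56) and the Cpt1b change minus the Cpt1a change (2.77 to 3.05) kept their direction and moved by less than the spread between replicates in the alternatives that could move them. Of the 18, 6 (both filters, 1 probe set per gene, both variance models and the replicate block) cannot. Nor can the mean of all probe sets move Cpt1b, or subtraction of array medians the Cpt1b change minus the Cpt1a change. With single arrays left out Crat ran from -0.14 (without control replicate 3, a reversal) to 0.82 (without control replicate 2). Crot ran from 0.13 (without control replicate 2) to 0.44 (without control replicate 1) and was 0.02 with both YY1bKO replicate 1 and control replicate 2 left out, which was tried after the data had been seen. The 11 probe sets past the limma adjusted threshold became 5 with array medians subtracted and 7 with only probe sets above the 25th percentile, but 16 with a pseudocount of 16, 15 with only those above the 50th percentile and 13 with 1 probe set per gene. They became 1 to 7 with single arrays left out and 1 without that pair of arrays, where fewer arrays were fitted. The 0 pathway genes past it became 1 with a pseudocount of 16, 1 with 1 probe set per gene and 2 with only probe sets above the 50th percentile. The 24 pathway genes at an unadjusted p under 0.05 were 17 to 27 without single arrays and 14 without the pair, again with fewer arrays fitted. With the replicate number as a block 1 probe set passed. The correlations of same-numbered arrays' deviations from group means were 0.61, 0.11 and 0.02 for replicates 1 to 3. Differently numbered arrays ran from -0.65 (YY1bKO replicate 2 with control replicate 1) to 0.60 (YY1bKO replicate 2 with control replicate 3). These values do not settle whether arrays with the same number belong together. The cause was not tested for counts that moved with scaling. Group size of 3 and signal close to background limit the dim probe sets of Cpt2 and Slc22a5.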
